A study of Homo sapiens with 3 samples.

Results

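The 10 genes described here encode proteins that the liver and the fetal yolk sac secrete into plasma: the apolipoproteins APOA1, APOA2, APOC3, APOB, APOE and APOH, the carrier proteins TTR, ALB and AFP, and the adhesion protein VTN. They are 10 of 19912 genes in the files and were chosen by symbol, with their levels, their share of positive cells and the small number of cells that carry them in these same libraries already known. All of these values are therefore a description of the genes, with no test. The cells were HCT116, a human colorectal carcinoma line, carrying a histone H2B-GFP label. They grew in an organ-on-chip, a microfluidic culture device with a top and a bottom channel. The 3 groups were the top channel without peristalsis (not stretched top, cells that had not invaded), the top channel with peristalsis (stretched top, cells that had not invaded) and the bottom channel with peristalsis (stretched bottom, cells that had invaded), and the stretch lasted 6 days. Cells of every group were sorted for GFP before droplet 3′ sequencing, and the labels give no further allele or agent. With 1 library of 1 cell line per group, conditions could not be tested against each other, differences are given by size alone, and each 95% interval covers counting error only.

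Apolipoproteins coat the fat particles that carry cholesterol and triglyceride in blood. APOB is the structural protein of particles that hepatocytes and enterocytes assemble with the transfer protein MTTP, while APOA1 and APOA2 are the main proteins of high-density lipoprotein and APOC3 slows the breakdown of triglyceride. Liver-enriched factors such as HNF4A and FOXA2 bind the promoters of many of these genes, and APOA1, APOB and APOC3 are also made by enterocytes, whereas ALB and AFP are known mainly from liver and yolk sac.

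Promoter sequences are shown for 4 of the 10 genes because the carriers ALB and AFP shared cells in the top channels, APOH was found without them in the bottom channel, and APOA2 stands for the high-density lipoprotein genes. The RefSeq table (GRCh38.p14) held a promoter for 6 of the 10 genes: APOA2, ALB, AFP, VTN, APOH and APOE. The 250 bases before the start were searched on both strands for TATAAA, the TATA box, for TGTTTAC, a forkhead core of the kind FOXA factors bind, and for AAAGTCC, part of the HNF4 motif. Matches are in capitals below in the last 150 bases before the start, written 5′ to 3′ along the gene. The start meant here is the RefSeq one. In ALB, AFP and APOH these bases lie inside the longer span that GENCODE 29 gives the gene.
ALB, chr4:73404137-73404286, plus strand: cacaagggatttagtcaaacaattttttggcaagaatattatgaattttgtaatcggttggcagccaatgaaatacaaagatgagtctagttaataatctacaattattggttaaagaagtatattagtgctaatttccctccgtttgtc
AFP, chr4:73436071-73436220, plus strand: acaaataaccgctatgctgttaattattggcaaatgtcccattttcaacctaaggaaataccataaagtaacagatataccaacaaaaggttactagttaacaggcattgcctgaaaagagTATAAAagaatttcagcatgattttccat
APOH, chr17:66229416-66229565, minus strand: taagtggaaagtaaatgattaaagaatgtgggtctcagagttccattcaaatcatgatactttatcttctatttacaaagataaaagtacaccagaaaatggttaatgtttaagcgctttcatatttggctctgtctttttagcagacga
APOA2, chr1:161223629-161223778, minus strand: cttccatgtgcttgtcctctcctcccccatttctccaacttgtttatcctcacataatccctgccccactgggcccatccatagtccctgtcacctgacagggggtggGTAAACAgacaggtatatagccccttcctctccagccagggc
AFP held TATAAA with its first letter at -29, counted from the RefSeq start, and APOA2 held the forkhead core on the opposite strand at -42. The searched letters were in none of the other promoters, ALB, APOH, VTN and APOE, and AAAGTCC was in none of the 6 genes. Of 35116 promoters of that length 10.7% held TATAAA, 2.98% the forkhead core and 3.20% AAAGTCC. These matches describe letters and not binding.

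The 3 libraries kept 17206, 20121 and 1951 cells with a median of 10964, 9384 and 40387 UMIs, in the order not stretched top, stretched top and stretched bottom. The filter left out 34.1%, 20.1% and 44.5% of barcodes, and the median mitochondrial share of kept cells was 9.64%, 10.4% and 4.09%. Of the kept barcodes 88 were shared by both top libraries, 6 by the not stretched top and bottom libraries and 9 by both stretched libraries, and leaving these cells out changed no count of the 10 genes past 1.5-fold and took 1 cell from the 237 rich cells described below. The epithelial label held: EPCAM stood at 386, 389 and 501 CPM (counts per 1000000 UMIs, summed over kept cells). The summed CPM of 10 fibroblast markers was 8.96, 5.81 and 4.54, of 10 leukocyte markers 8.64, 7.72 and 8.98, and of 22 hepatocyte markers 33.7, 29.95 and 21.5. That of 10 endothelial markers was 128, 105 and 127, of which EGFL7 made up 123, 101 and 118 CPM. The bottom library had few cells and was deep per cell, so shares of positive cells are also given over the cells with at least 10000 UMIs (9538, 9094 and 1550 cells), before and after thinning each to 10000 UMIs. The shallower cells are left out there. No cell was removed as a doublet. The level of free RNA was not measured, so no expression is read from cells with a single UMI of a gene.

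Both genes of high-density lipoprotein were present in both top libraries and far lower in the bottom library. APOA1 (ENSG00000118137, chromosome 11, 116835751 to 116837950, minus strand, hg38) had levels of 139, 108 and 0.796 CPM in the order not stretched top, stretched top and stretched bottom. The bottom level was 174-fold below the not stretched top level (interval 136 to 228). APOA2 (ENSG00000158874, chromosome 1, 161222292 to 161223631, minus strand) stood at 60.9, 62.5 and 0.157 CPM in the same order, and its bottom level rests on 12 UMIs. Both top libraries were high for each gene and the bottom library was low. APOA1 shares its locus with the antisense gene APOA1-AS on the opposite strand, and the strand setting of the counting was not stated in any source used here.

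The other fat-particle genes were likewise higher in both top libraries than in the bottom library. APOC3 is an inhibitor of triglyceride breakdown whose gene lies 2678 bases from APOA1 (chromosome 11, 116829706 to 116833072, plus strand). It stood at 11.2 and 18.0 CPM in the top libraries and had 0 UMIs in the bottom library, where the exact Poisson interval reaches 0.0481 CPM. By the counting interval of the ratio, its bottom level was at least 233-fold lower than the not stretched top level. That bound holds only if UMIs are independent. A floor of 3 counts over the bottom library is 0.0391 CPM, and the ratio at that floor was 287. APOB (chromosome 2, 21001429 to 21044073, minus strand) stood at 5.17 and 3.43 CPM in the top libraries and at 0.117 CPM in the bottom library, where 9 UMIs came from 2 cells. APOE, the ligand by which remnant particles are taken up (chromosome 19, 44905754 to 44909393, plus strand), stood at 57.4, 46.0 and 1.28 CPM. Its bottom UMIs were spread thinly, with 98 UMIs in 94 cells. APOB is overlapped on the opposite strand and APOE on the same strand by unnamed transcripts, and reads could be split there.

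The plasma carriers were almost undetected in the bottom library. TTR, the thyroxine and retinol carrier (chromosome 18, 31557010 to 31599021, plus strand), stood at 18.99 and 21.9 CPM in the top libraries and had 1 UMI in the bottom library, a ratio of 1456 to the not stretched top level with a counting interval of 261 to 57508. ALB, albumin, stood at 1.45 and 1.63 CPM in the top libraries, with 1 UMI below. AFP, the fetal counterpart of albumin, stood at 6.13 and 4.25 CPM in the top libraries and had 0 UMIs below. VTN, vitronectin, which binds integrins (chromosome 17, 28367276 to 28373091, minus strand), stood at 14.2 and 12.1 CPM in the top libraries and had 1 UMI below. VTN is overlapped by other annotated genes on both strands.

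**Figure D1:**
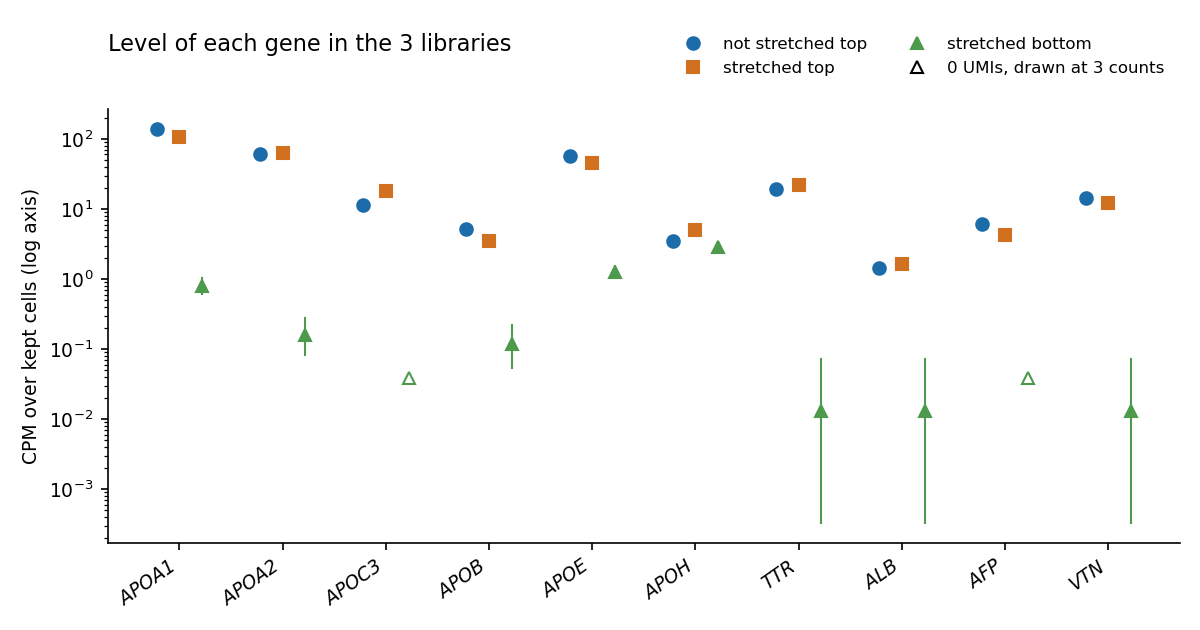
Level of each of the 10 genes in the 3 libraries, as CPM over kept cells on a log axis, with exact Poisson 95% intervals as bars. Circles are the not stretched top, squares the stretched top and triangles the stretched bottom library; open triangles mark 0 UMIs, drawn at 3 counts. APOH is the gene whose bottom level lies nearest to the top levels.

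Counted by a fixed size, 6 of the 10 genes reached 10 CPM in either library of each pair. All 6 lay 1.5-fold or more below the stretched top level in the bottom library, where 11% of 8870 genes were that much lower. All 6 were also lower than in the not stretched top library, where 20.7% of 9218 genes were. None was higher in the bottom library in either comparison, where 7.93% and 6.8% of genes were. The values that fix these counts were used to choose the genes, so nothing is read from their distance to the background. With stretch in the top channel, 1 of 6 was higher, APOC3 at 1.60-fold (interval 1.52 to 1.69), and 0 were lower, where 0.175% of 9119 genes were higher and 0.592% lower. APOC3 did not keep that call without the 10 cells that held most of its UMIs in each library, where its log2 ratio was 0.53 in place of 0.63. The median log2 ratio of the 6 genes was -0.09 with stretch, -4.43 in the bottom against the stretched top library and -4.49 against the not stretched top library, beside -0.16, -0.0045 and -0.18 over all genes. TMM scaling moved all genes by 0.18 in the first of these comparisons.

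The UMIs came from very few cells. The 1% of kept cells with most UMIs of a gene held between 68.9% (APOE) and 100% of its UMIs in the not stretched top library. In the stretched top library they held between 71.0% and 100%. The median over genes at 10 CPM or more was 9.51% and 10.1%. APOB, APOH, ALB and AFP lay below 10 CPM, where low counts alone raise this share, so they have no like background here. ALB and AFP were positive in under 1% of cells, so 100% follows from their counts. All 10 genes held at least 50% of their UMIs in that 1% in both top libraries. Of genes at 10 CPM or more 16 of 9095 (0.176%) and 14 of 8654 (0.162%) did. APOA1, APOA2, APOC3, APOE, TTR and VTN are among these 16 and 14. The small number of cells that carry the genes was known when they were chosen, so nothing is read from the distance to these shares. In the bottom library, where 0.0488% of genes at 10 CPM or more did, only APOH had the 100 UMIs needed. TTR had the highest share of 9095 and of 8654 genes, at 91.2% and 90.9%.

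Single cells show how steep this was. Of the TTR UMIs in the not stretched top library 50% came from 14 cells, and 20 cells supplied the same share in the stretched top library. The highest single cell held 401 and 464 TTR UMIs in these libraries. For ALB the same share came from 5 and 4 cells, and for AFP from 8 and 9. APOE was the most widely spread, with 96 and 110 cells for the same share. Among cells positive for APOA1 67.5% and 67.2% had 1 UMI.

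**Figure D2:**
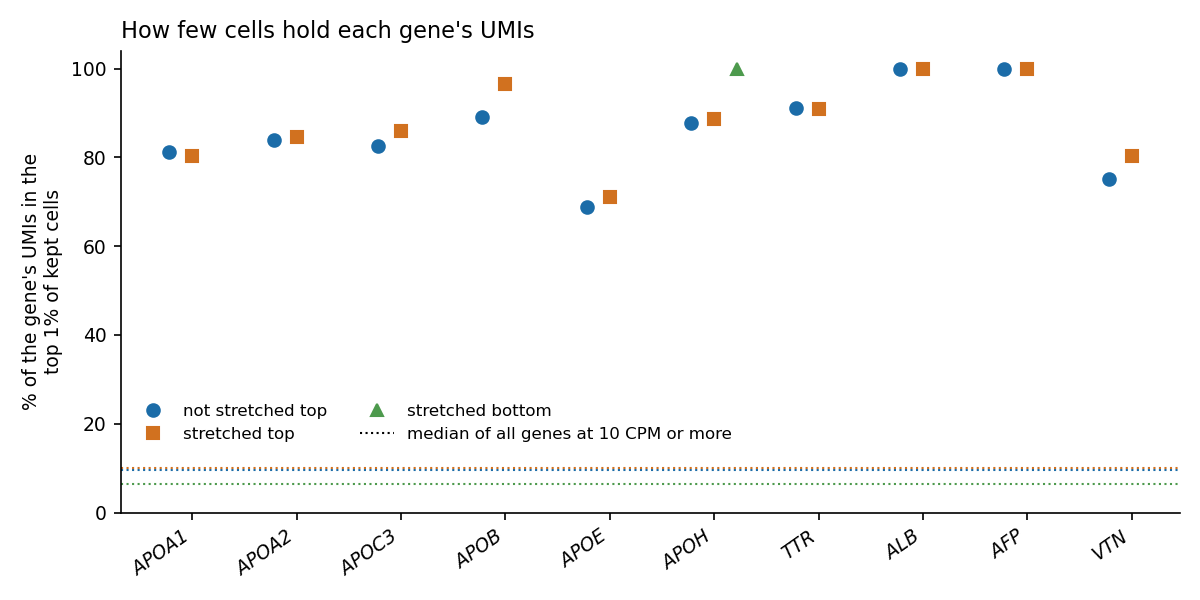
Percent of each gene's UMIs that lay in the 1% of kept cells with most of them, for genes with at least 100 UMIs in the library. Symbols are the 3 libraries and dotted lines are the median over all genes at 10 CPM or more. Each point lies above 68%, far over the dotted lines near 6% to 10%, but APOB, APOH, ALB and AFP lay below 10 CPM and have no like background.

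Shares of positive cells depended on depth. APOA1 was detected in 9.39%, 7.17% and 2.82% of kept cells, in 11.3%, 9.41% and 3.55% of cells with at least 10000 UMIs, and in 8.26%, 7.33% and 0.774% of those same cells once thinned. APOE was detected in 7.83%, 5.70% and 4.82% of kept cells, in 10.1%, 7.55% and 5.87% of the deeper cells, and in 7.59%, 6.26% and 1.35% of these once thinned. In the same cells, thinning thus lowered the bottom share of both genes by a larger factor than the top shares. The bottom cells were deeper and lost more of their UMIs to thinning, so nothing is read from that larger drop. APOH was detected in 1.53%, 1.60% and 1.03% of kept cells, in 2.25%, 2.63% and 1.16% of the deeper cells and in 1.55%, 2.12% and 0.710% of the thinned cells. The other 7 genes were detected in at most 1 of 1550 thinned bottom cells.

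The same cells carried several of the genes. Cells with at least 10 UMIs of each of at least 3 of the 10 genes, called rich cells below, were 229 of 17206 in the not stretched top library (1.33%, interval 1.17 to 1.51) and 237 of 20121 in the stretched top library (1.18%, 1.03 to 1.34). None of 1951 bottom cells met that size (0%, interval 0 to 0.189). This is a range of a count and not a cell type. As cells chosen for these genes, rich cells held 72.3% of APOE, 82.0% of APOA1, 90.2% of TTR and 91.4% of AFP UMIs in the not stretched top library, and between 68.9% and 86.2% of each gene in the stretched top library. The median rich cell had at least 1 UMI of 8 of the 10 genes, of which at least 3 follow from the definition. By the same count 17 cells in the not stretched and 13 in the stretched top library were positive for all 10. Single UMIs enter these counts, and the median rich cell had 1 APOH UMI in both libraries. Rich cells were deeper, with a median of 18624 against 10878 UMIs for other cells in the not stretched and 14311 against 9338 in the stretched top library, and a depth-scaled size of 10 UMIs per 10000 left 154 and 191 cells.

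Within the set, pairs differed in how closely they went together over kept cells. The r over log-scaled counts ran from 0.16 to 0.80 over 45 pairs in the not stretched top library, with a median of 0.52, and from 0.21 to 0.80 with a median of 0.56 in the stretched top library. These r describe cells that share a library and depth, and most of the signal lies in the rich cells. APOA1 and APOE were the closest pair, at 0.80 in both libraries. AFP went most closely with ALB, at 0.59 and 0.64, and the r of ALB with each of the remaining genes was at most 0.31. The AFP and ALB genes are neighbours on chromosome 4, 9725 bases apart. All 24 and 21 cells with at least 10 AFP UMIs also had at least 10 APOA1 UMIs. Of the 7 and 7 cells with at least 10 ALB UMIs, 6 and 6 were among the AFP cells. That overlap is not particular to AFP, as all 7 and 7 also had at least 10 UMIs of APOA1 and of APOE. The AFP and ALB correlation was 0.64 and 0.73 within the rich cells alone, where the median over pairs was 0.20 and 0.23.

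**Figure D3:**
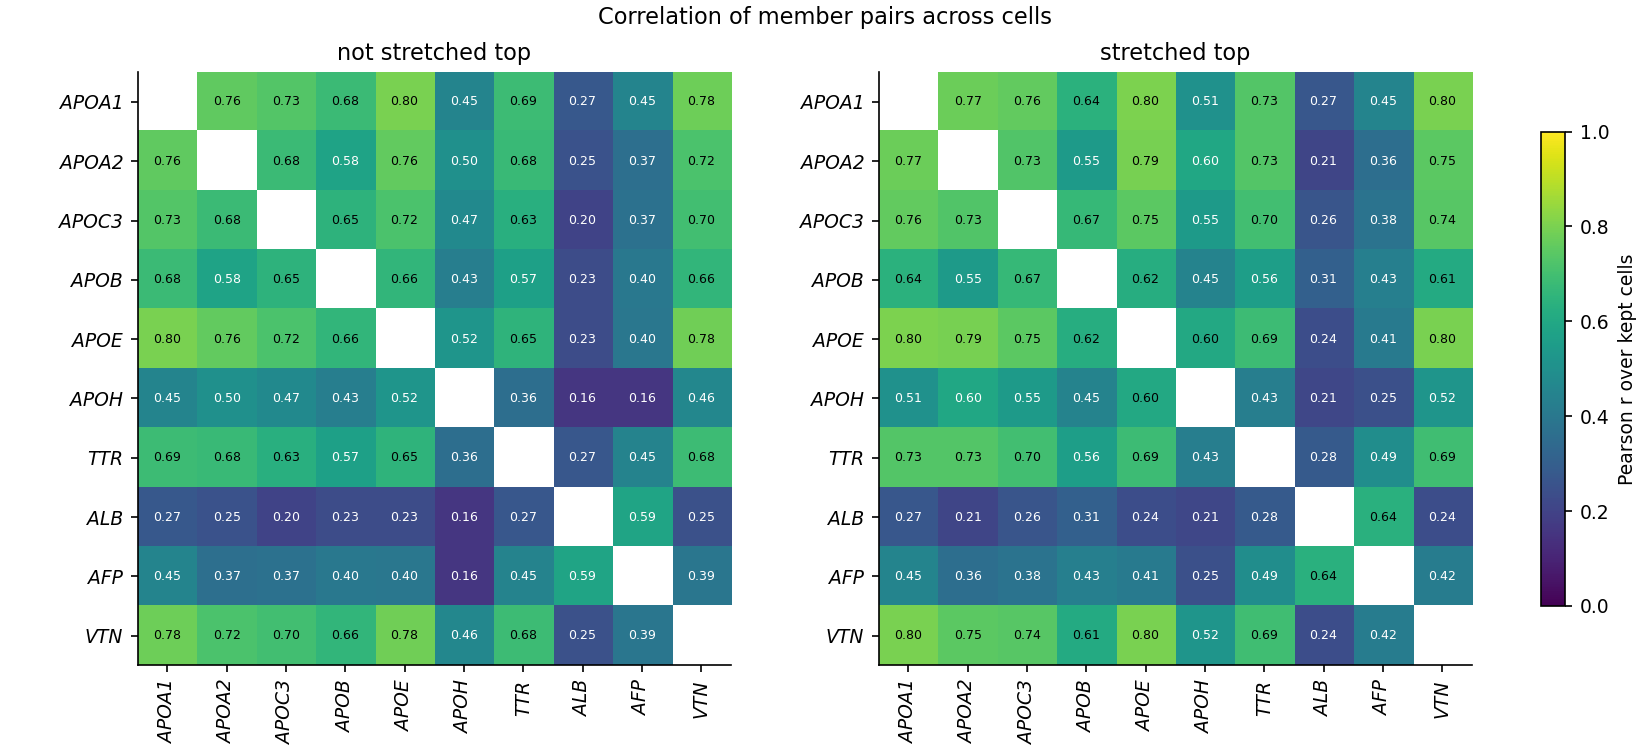
Pearson r of log-scaled counts over all kept cells for each pair of the 10 genes, in the not stretched top library on the left and the stretched top library on the right. The block of APOA1, APOA2, APOC3, APOE, TTR and VTN is bright, the AFP and ALB cell stands out in the dim rows of those genes, and APOH is lowest against ALB and AFP.

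The leading cells of TTR, AFP and ALB show these combinations one cell at a time. In the not stretched top library the cell with most TTR held 401 TTR, 572 APOA2 and 338 APOA1 UMIs, with 0 UMIs of AFP, ALB and APOH, among 25507 UMIs in all. The next held 365 TTR, 721 APOA1 and 164 AFP UMIs and again 0 of ALB and APOH. The cell with most ALB held 41 ALB, 73 AFP and 172 APOA1 UMIs but 6 of TTR. TTR and ALB were thus high in different leading cells there, while APOA1 was high in each of the 3.

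Of the 7 cells with at least 10 ALB UMIs in each top library, 2 in the not stretched library also had at least 10 TTR UMIs. In the stretched top library 4 of 7 did, so TTR and ALB were not in separate cells there. The leading cells of the stretched top library were as follows. The cell with most TTR held 464 TTR, 365 APOA2, 363 APOA1 and 278 APOE UMIs with 21 of AFP and 0 of ALB. The next held 240 TTR, 267 APOA2 and 157 APOC3 UMIs, with 61 of APOA1 and 0 of AFP and ALB. The cell with most ALB held 56 ALB, 85 AFP, 157 APOA1 and 32 TTR UMIs and was also the cell with most AFP. A further cell held 52 ALB, 158 APOA1, 126 APOA2 and 10 AFP UMIs in only 6165 UMIs. The 10 genes together made up at most 11.6% of a cell's UMIs in the not stretched and 11.7% in the stretched top library, and 0.0892% in the bottom library.

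The remaining genes were detected in few top cells. APOA2 was detected in 5.62% and 4.63% of kept cells of the not stretched and stretched top libraries, VTN in 2.95% and 2.31%, APOC3 in 2.62% and 2.61%, and TTR in 2.56% and 2.56%. APOB was detected in 1.60% and 1.13%, AFP in 0.895% and 0.691%, and ALB in 0.366% and 0.298%. In the bottom library APOA2 was detected in 0.564% of cells and APOB in 0.103%.

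APOH was the exception in the bottom library. APOH, or beta-2-glycoprotein I, binds phospholipid (chromosome 17, 66212033 to 66256525, minus strand), and stood at 3.44, 4.93 and 2.91 CPM, so its bottom level was 1.18-fold below the not stretched top level (interval 1.02 to 1.38) and 1.70-fold below the stretched top level (1.47 to 1.97). Its 223 bottom UMIs came from 20 cells, and 5 of them held 50%. Cells with at least 3 APOH UMIs numbered 81, 120 and 13 in the libraries. In the top libraries 12 of 81 and 13 of 120 of these had at most 2 UMIs of the other genes, and the rest had more. In the bottom library 13 of 13 had at most 1. The highest bottom cell had 36 APOH UMIs and 1 UMI of the other genes in a cell of 90400 UMIs, and the second had 30 and 0 in a cell of 38477. Cells with at least 10 APOH UMIs were 13, 18 and 9, and 100%, 94.4% and 0% of them were positive for 5 or more of the other genes. Among cells of at least 10000 UMIs thinned to that number, cells with at least 3 APOH UMIs and at most 2 UMIs of the other genes were 3 of 9538, 6 of 9094 and 5 of 1550.

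**Figure D4:**
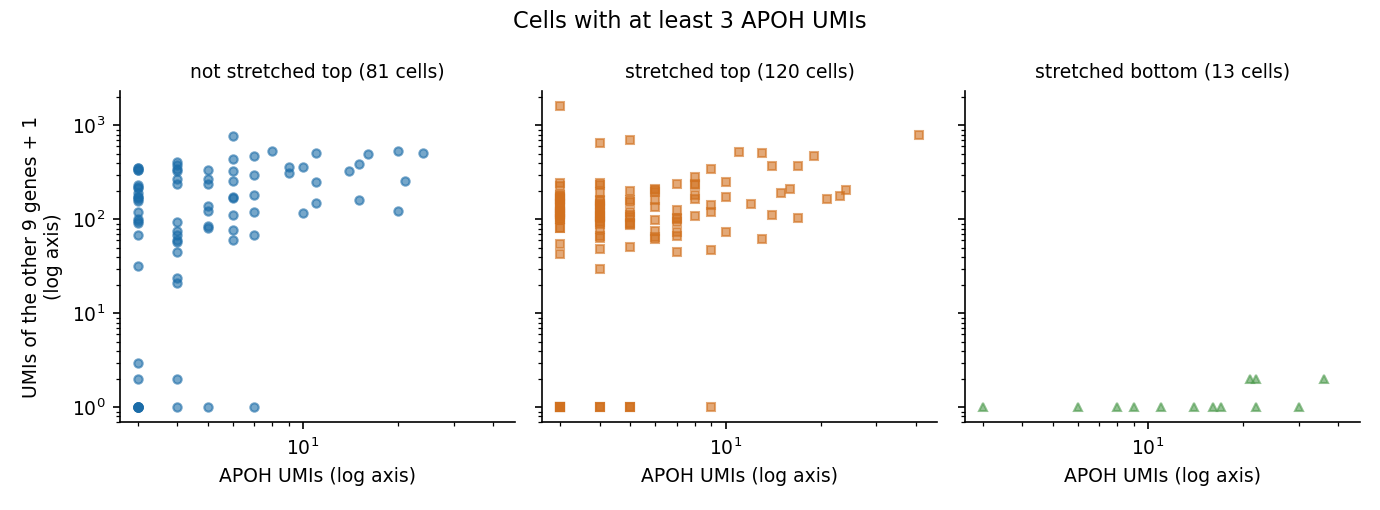
Each point is a kept cell with at least 3 APOH UMIs, with its APOH UMIs on the horizontal log axis and the UMIs of the other genes plus 1 on the vertical log axis, by library. Bottom cells lie along the lower edge at 1 or 2, while most top cells lie above 20.

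Other genes that follow the set were found by their r with the summed 10 genes over kept cells, taking the smaller of the values in both top libraries among 10260 genes. The most alike were AGR2, a secretory-pathway disulfide isomerase (0.74), FABP1, the liver fatty acid binding protein (0.72), and GPC3, a fetal liver glypican (0.70), followed by APOC1, QPRT, SERPINA1, CDH17, VIL1, FN1 and SPINK1. Single members had their own nearest gene: AGR2 for APOA1, APOC3 and AFP, FABP1 for APOA2 and TTR, GPC3 for APOB, APOE and VTN, SPINK1 for APOH and RBP4 for ALB. AGR2 had 5643, 4296 and 0 UMIs in the 3 libraries and FABP1 had 5697, 7758 and 0. Genes with at least 50% of their UMIs in 1% of cells, named after these values were seen, included 10 others in the not stretched top library, among them FABP1, AGR2, FN1, GPC3, SERPINA1, APOC1 and HNF4A.

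Between libraries, the surrounding genes were counted among those with at least 10 CPM in either library, where 7.93% of genes were higher and 11% lower in the bottom than in the stretched top library. Of 4 other apolipoprotein genes 1 was lower, APOC1 at 2.07 against 12.5 CPM, and of 2 liver secreted genes SERPINA1, the antitrypsin gene, was lower at 1.23 against 14.8 CPM. Of 6 intestinal lipid and enterocyte genes 3 were lower, FABP1, AGR2 and ACSL5, and of 4 yolk sac and fetal liver genes 3 were lower, SPINK1, GPC3 and VCAN. Of 6 transcription factor genes 4 were lower, among them PPARA at 5.58 against 13.1 CPM, and of 10 receptor and lipase genes 4 were lower, among them LIPA at 13.9 against 26.7 CPM. Of 13 assembly and export genes 1 was higher, SAR1B, a coat protein gene of export vesicles, and 1 lower, DGAT1, which makes triglyceride, both near the share over all genes. APOC1, SERPINA1, FABP1, AGR2, SPINK1, GPC3 and PPARA reached 10 CPM only in the library where they were high, so nothing is read from these counts. With stretch in the top channel CLU was higher at 119 against 74.1 CPM, SEC24D was lower at 25.8 against 39.7 CPM and ANGPTL4 was lower at 16.7 against 26.3 CPM. No other listed gene at 10 CPM or more passed 1.5-fold with stretch, apart from APOC3. Below that level LRP2, a receptor gene named after its value was seen, stood at 1.21 against 3.24 CPM. Under TMM scaling CLU kept its call with a log2 ratio of 0.85, while SEC24D at -0.43 and ANGPTL4 at -0.46 did not.

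The wider pathway was compared between rich cells and the other kept cells of the same library. These cells were selected by the 10 genes, so only genes outside them are counted. Every listed gene is counted, with no minimum level, since a minimum met only in rich cells would fix the call. On that count 20.5% and 21.2% of 19902 genes were at least 1.5-fold higher in rich cells and 13.2% and 11.7% lower, in the not stretched and stretched top libraries. Calls of low genes can rest on a few UMIs, and a gene almost absent from the other cells can only be called higher. Of 48 genes for other liver secreted plasma proteins 29 and 30 were higher and 2 and 2 lower. RBP4, the retinol carrier, stood at 298 against 1.12 CPM in the not stretched and 273 against 1.24 in the stretched top library. AHSG, fetuin, stood at 299 against 1.87 CPM and 260.3 against 2.16. FGB, a fibrinogen chain, stood at 116 against 0.289 CPM and 132 against 0.739. F12, the one gene of this list with at least 10 CPM in the other cells, stood at 52.5 against 70.1 CPM in the not stretched top library, short of 1.5-fold. In the stretched top library F12 was called lower, at 48.1 against 76.6 CPM.

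Genes of particle assembly and export were higher in 16 and 17 of 23 and lower in 1 and 1. Of the 13 with at least 10 CPM in the other cells, a level that does not depend on the rich cells, 7 were higher and 1 lower in each library. The share over all genes at that level was not computed. Nothing is therefore read from this count or from the counts at that level given below for other lists. MTTP, the transfer protein that loads APOB, stood at 24.0 against 0.654 CPM in the not stretched and 38.9 against 0.497 in the stretched top library. P4HB, the MTTP partner subunit, was the lower gene at 352 against 578 CPM and 291 against 470 CPM. Of 16 other apolipoprotein genes 7 and 8 were higher and 0 lower. Of the 3 with at least 10 CPM in the other cells 0 and 1 were higher and 0 lower. APOA4, which lies 12444 bases from APOA1, stood at 120.1 against 0.164 CPM and 85.3 against 0.208. APOC1, which lies 4853 bases from APOE, stood at 335 against 3.94 CPM and 438 against 4.84. CLU, a secreted chaperone also named apolipoprotein J, stood at 65.7 against 74.3 CPM and 107 against 119, and at 169 CPM in the bottom library.

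Of 29 transcription factor genes of liver and intestine 19 and 20 were higher and 2 and 2 lower, and of the 6 with at least 10 CPM in the other cells 3 and 2 were higher and 1 and 1 lower. HNF4A stood at 231 against 6.08 CPM in the not stretched and 174 against 5.01 in the stretched top library. FOXA2 stood at 24.8 against 0.5004 CPM and 24.8 against 0.261. CDX2, an intestinal factor, stood at 50.1 against 7.11 CPM and 48.9 against 6.28, and ZBTB20, a repressor of AFP, was lower at 151 against 561 CPM and 136 against 487. Of 23 intestinal lipid and enterocyte genes 18 and 18 were higher and 3 and 0 lower. Of the 4 with at least 10 CPM in the other cells 1 and 1 were higher and 2 and 0 lower. Of 24 receptor and lipase genes 8 and 10 were higher and 4 and 3 lower. Of the 11 and 10 at that level 2 and 2 were higher and 3 and 3 lower. Of 9 yolk sac genes 3 and 3 were higher and 2 and 2 lower, and the 2 at that level were lower in both libraries. In the bottom library HNF4A stood at 1.62 CPM, CDX2 at 9.34 CPM and FOXA2 had 0 UMIs.

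Markers of other cells were measured in the same way. Of 22 hepatocyte markers 8 and 9 were higher in rich cells and 3 and 4 lower. The receptor genes ASGR1 and ASGR2 were higher and CPS1, a urea cycle enzyme, was lower, at 6.21 against 21.2 CPM in the not stretched top library. CYP3A4, a defining enzyme of mature hepatocytes, had 0 UMIs in rich cells and 4 and 3 in all kept cells, and 5 and 7 of the 22 markers had 0 in rich cells. The summed hepatocyte markers stood at 137 against 31.4 CPM and 115 against 28.4. Of the 22 only ASGR1 and ASGR2 reached 10 CPM in rich cells, and CPS1 made up 21.2 of the 31.4 CPM in the other cells, so the sums do not describe the markers in general. Of 14 colon epithelial markers 5 and 6 were higher and 2 and 0 lower, the 2 being CLDN3 and CLDN7. Of the 10 with at least 10 CPM in the other cells 1 and 2 were higher and 2 and 0 lower. EPCAM stood at 569 against 382 CPM in the not stretched top library, short of 1.5-fold, and at 649 against 384 CPM in the stretched top library. Of 10 fibroblast markers 4 and 5 were higher and 0 lower, with sums of 19.9 against 8.72 CPM and 21.1 against 5.54. Of 10 leukocyte markers 5 and 6 were higher and 0 lower, among them LYZ at 49.5 against 0.669 CPM in the not stretched top library. Of 10 endothelial markers 1 and 2 were higher and 2 and 1 lower. The part of these markers in the levels of the 10 genes was not tested.

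**Figure D5:**
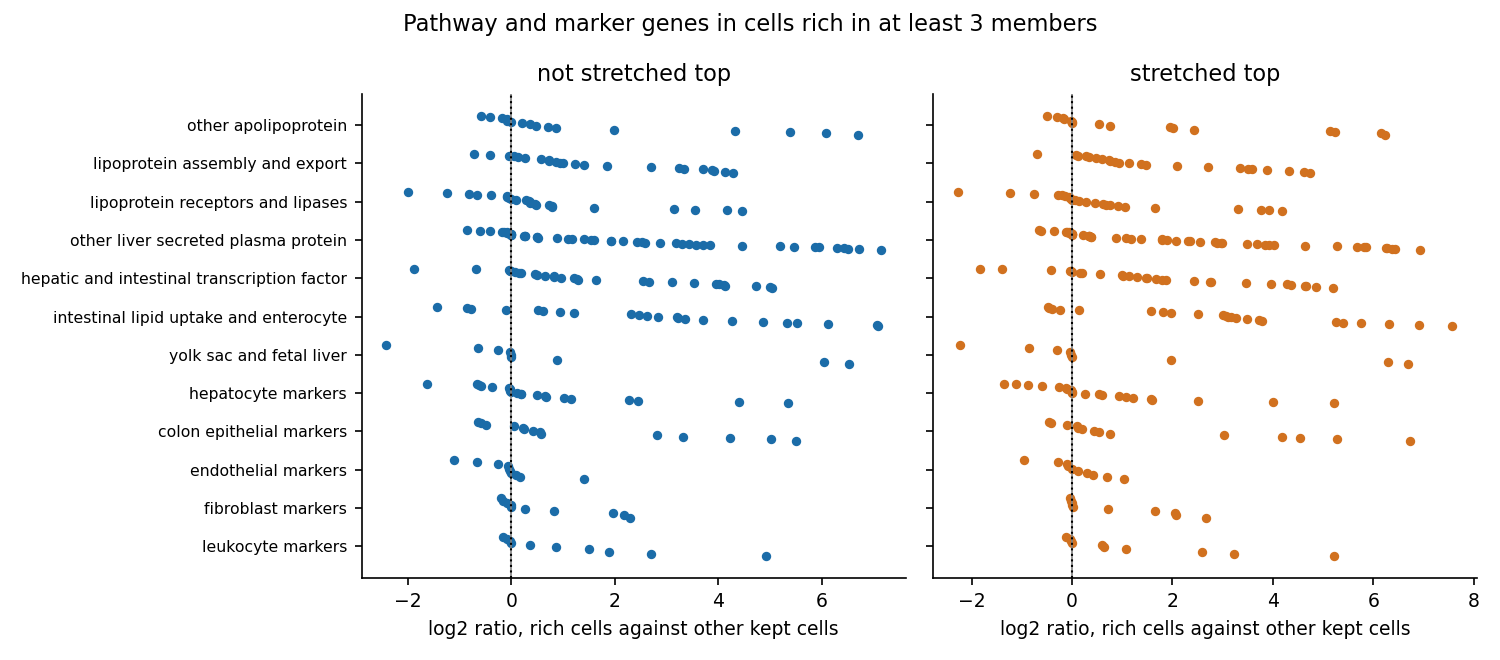
Each point is a listed gene, placed by its log2 ratio of CPM + 1 between rich cells and other kept cells, by list and by top library, with no minimum level. The solid line at 0 and the dotted line, the median of all genes, coincide. Genes of every pathway list reach above 4, as do single genes of the marker lists.

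Among all UMIs of the 10 genes, APOA1 supplied 43.7% without stretch and 38.1% with stretch in the top channel, against 15.0% in the bottom library, where APOH supplied 54.9% and APOE 24.1%.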

How the data were processed

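Single-cell RNA was measured in 3 libraries, 1 per group. Values are raw UMI counts for each barcode as deposited, made by the authors with Cell Ranger 7.0.0 per the file headers and build hg38 per the submitters' processing notes. No source used here states the annotation release. Trypsin (0.25%, 5 min, 37 °C), 12 PCR cycles and a target of 10000 droplets are per the labels' protocols. The 10 genes and the lists were chosen with earlier results of these data known.

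Kept cells had 500 or more genes, 1000 or more UMIs and no more than 20% mitochondrial UMIs. CPM was computed from summed UMIs of the kept cells, which came to 212503735, 210814252 and 76641034. Log2 ratios used CPM + 1, a minimum of 10 CPM and a threshold of 1.5-fold. Lists in rich cells were counted with no minimum, a choice made after seeing the data. Intervals are exact Poisson, Clopper-Pearson or conditional binomial at 95% and treat UMIs as independent. A floor of 3 counts was used for 0. Rich cells have at least 10 UMIs of each of at least 3 of the genes. Likeness is Pearson r of log1p counts per 10000, for genes with at least 5 CPM. Named genes were the 10, up to 4 per list with the largest ratio, 8 fixed genes and the most alike genes; others named from lists were chosen after their values were seen. The level of 1 fixed gene is not reported here. Coordinates are from GENCODE 29, promoters from RefSeq. The ratio and concentration steps were tested on simulated data. Alternatives covered cell filters, scaling, cell weights, thinning, pseudocounts, minimums, thresholds and rich-cell sizes; 5 were chosen after seeing the data. Tools were Python 3.11.15, numpy 2.4.6, scipy 1.17.1, pandas 2.3.3, matplotlib 3.10.9, R 4.3.3 and edgeR 4.0.16 (TMM factors only).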

Additional observations from a re-analysis of the deposited data

Results flagged for a closer look

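The barcodes left out by the cell filter also held UMIs of the 10 genes, and in the stretched top library their level was above that of the left-out barcodes of the not stretched control. The summed genes stood at 413.9 CPM in left-out barcodes of the stretched top library (interval 403 to 425) and at 305 CPM in those of the not stretched top library (298 to 312), beside 282 and 317 CPM in kept cells. TTR stood at 32.6 CPM in left-out barcodes of the stretched top library and 10.51 CPM in those of the not stretched top library. The left-out barcodes had a median mitochondrial share of 25.1% in the stretched and 64.6% in the not stretched top library, and the part of this in the result was not tested.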

How the results depend on the processing

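No paired analysis was possible because each group has 1 library. No alternative turned the direction of a called log2 ratio. The count of genes past 1.5-fold with stretch (1, APOC3) became 0 with 5 CPM added, with a 2-fold threshold, without rich cells and without the 10 cells with most UMIs of the gene. The count in the bottom against the stretched top library (6) became 10 with a minimum of 1 CPM and 10 with no minimum, and 3 of 3 without rich cells. Against the not stretched top library it became 3 without rich cells. There it was 9 of 10 with a minimum of 1 CPM and with no minimum, as APOH, at a log2 ratio of -0.18, was not called. VTN, with a log2 ratio of -0.22 with stretch and no call, stood at 0.00 under the stricter cell filter. The rich-cell share of the not stretched top library (1.33%) became 1.86% at 5 UMIs, 0.674% at 20 UMIs, 1.80% for 2 genes, 0.946% with no cell filter and 0.895% per 10000 UMIs. That of the stretched top library (1.18%) became 1.735%, 0.502%, 1.665%, 1.02% and 0.949% in the same order, and 1.41% under the stricter filter. The bottom share was 0 under each of its 7 alternatives. Thinning to 3000 UMIs left 0 genes with enough UMIs for the concentration count in the bottom library. The share of cells with at least 3 APOH UMIs and at most 2 of the other genes became 0.0315% from 0.0697% in the not stretched top and 0.323% from 0.666% in the bottom library over cells of at least 10000 UMIs thinned to that number. The median of all genes in the stretch comparison moved from -0.16 to 0.01 under TMM scaling. The 1951 bottom cells limit what can be seen there, and with 1 library per group no setting adds a replicate.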

Other observations

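Genes with at least 50% of their UMIs in 1% of cells in the bottom library, among 8200 genes at 10 CPM or more, were VIM (71.2%), CITED1 (67.0%), OTULINL (53.0%) and IFI27 (51.9%), none of them one of the 10. CITED1 also stood at 56.7% in the not stretched top library. Among left-out barcodes of the bottom library the summed 10 genes stood at 3.89 CPM from 13 UMIs.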
